A study of Mus musculus with 2 samples.

Results

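The genes described here are the mouse genes of the inflammasome, of pyroptosis and of necroptosis that were chosen by name: Nlrp3, Pycard, Casp1, Casp4, Gsdmd, Casp8, Ripk3 and Mlkl. They are 8 of the 32285 genes counted in each library, and all 8 are reported whatever their values. The study compared the kidneys of a male wildtype C57BL/6J mouse of 19 weeks after surgery on the left side. The control library was made from the contralateral kidney, which had not been injured, and the ischemia library from the left kidney after 27 min of ischemia and 24 h of reperfusion. Both kidneys were dissociated with enzymes and captured for single cell RNA sequencing (scRNAseq), in which each captured transcript is counted once through a unique molecular identifier (UMI). The control kidney came from an animal that had the injury on the other side, so it is an uninjured kidney and not one of an untreated mouse. Each condition has 1 library and thus no replicate, so the conditions could not be tested against each other and no p-value is given. Intervals are exact at 95%, and they cover counting error only. Where a pair of values is given, the control library comes first.

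Barcodes under 200 genes, outside 500 to 150000 UMIs or over 55% mitochondrial were removed, which left 12586 control and 13116 ischemia cells with medians of 3839 and 2138.5 UMIs. Havcr1, a gene of injured proximal tubule, was at 4.97 CPM (the UMIs of a gene among 1000000 UMIs of the same cells) in the control library and 267 CPM after ischemia, and Lcn2, which encodes the injury protein NGAL, at 126 and 1350 CPM. The libraries shared 88 cell barcodes, of which 58 were kept in both. Cell classes were named from marker genes, and each name stands for cells like that type: macrophage (288 control and 574 ischemia cells), neutrophil, T-NK, B cell, endothelial (EC), pericyte and smooth muscle (pericyte-SMC), podocyte, proximal tubule (PT, 2199 and 1757 cells), thin limb, thick ascending limb (TAL, 1336 and 1224), distal convoluted and connecting tubule (DCT-CNT), collecting duct principal (CD-PC, 532 and 455) and intercalated cells (CD-IC). Of the TAL cells, 846 control and 743 ischemia cells were of cluster 4, which had as many DCT-CNT as TAL markers among its leading genes. Macrophage cells held 1.44% of the UMIs of the control and 4.17% of the ischemia library. The neutrophil class held 33 control and 209 ischemia cells, but 14 and 18 of these separated at a finer clustering, at resolution 0.6 in place of 0.3, as cells led by Tnc, Kcnmb2 and Igfbp2. Levels in neutrophils are therefore given for the other 19 and 191 cells. The CD-PC cluster also had Aqp6, a CD-IC marker, and Trpv5, a DCT-CNT marker, among its leading genes. At resolution 0.6 the CD-PC class had 354 and 309 cells. A further CD-IC cluster of 98 and 86 cells then appeared, with Aqp6 and Slc4a1 among its leading genes. The CD-PC class may thus include intercalated cells, and the CD-IC class is the cluster led by Slc26a4 alone. Clusters 0, 1 and 15 met no list of markers well enough and were left unnamed. Cluster 0 held 36.3% of control and 44.8% of ischemia cells, at medians of 895 and 797 UMIs. Cluster 1 held 13.7% and 7.96%, at medians of 6941.5 and 7930 UMIs. Both scored highest for the PT markers. The PT class, with medians of 26511 and 36048 UMIs, may thus leave out PT cells.

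In the canonical inflammasome, the sensor NLRP3 detects disturbances such as loss of potassium, assembles the adaptor ASC (encoded by Pycard) into a large speck, and thereby activates caspase-1 (Casp1), which matures IL-1β. Casp4, whose mouse product is also called caspase-11, is a caspase that senses bacterial lipopolysaccharide in the cytosol. Both caspases cleave gasdermin D (Gsdmd), whose released end forms pores in the plasma membrane, and the cell dies by pyroptosis. Caspase-8 (Casp8) starts apoptosis downstream of death receptors and restrains necroptosis, the death in which the kinase RIPK3 (Ripk3) phosphorylates MLKL (Mlkl), which then breaks the membrane. In the kidney these routes have been studied as forms of cell death of tubules and as sources of inflammation in leukocytes.

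All 8 genes are protein coding. In GENCODE M21 on GRCm38, the build called mm10, Casp1 (chr9:5298517-5307265) and Casp4 (chr9:5308828-5336783) are neighbors on the plus strand, and Nlrp3 lies at chr11:59541568-59566956, also on the plus strand. Casp8 lies at chr1:58795374-58847503 and Gsdmd at chr15:75862327-75867408, both on the plus strand. On the minus strand lie Pycard (chr7:127989708-127993867), Ripk3 (chr14:55784995-55788865) and Mlkl (chr8:111311797-111338177). An exon of Pycard overlaps the opposite-strand gene model Gm45205, while Casp8 and Mlkl overlap Gm37760 and Gm45712 outside exons.

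The promoters of Nlrp3 and Casp4 are shown because these had the highest ratios of ischemia to control among the 8 genes, Nlrp3 in all kept cells and Casp4 in a tubule class, and because both hold a match to an NF-kB motif. The 2 measures differ: in all kept cells Casp4 (2.55) stood below Ripk3 (4.63) and Mlkl (2.61). A link between motif and ratio was not tested. A motif was searched on both strands of RefSeq promoters of GRCm38.p6, from 250 bases before to 50 after each start. The NF-kB letters GGANTTNCC were found in 3.95% of 32851 promoters, the interferon response letters GAAANNGAA in 8.56% and the AP-1 letters TGANTCA in 7.81%. Of the 8 genes, 7 had an entry, with 9 windows in all; Gsdmd had none. The NF-kB letters were found at the first start of Nlrp3 but not at its second. They were also found at both starts of Casp4, whose windows overlap and share the match. The interferon response letters were found at Ripk3, where the match began 15 bases after the start. AP-1 letters were found in none of the 9 windows. A match is a description of letters and not a site of binding. The 250 bases before the first start are printed 5′ to 3′, from chr11:59541319-59541568 and chr9:5308599-5308848, both on the plus strand, with the match in capitals, which begins 122 bases before the start for Nlrp3, where the letters read on the minus strand, and 91 bases before it for Casp4.
Nlrp3: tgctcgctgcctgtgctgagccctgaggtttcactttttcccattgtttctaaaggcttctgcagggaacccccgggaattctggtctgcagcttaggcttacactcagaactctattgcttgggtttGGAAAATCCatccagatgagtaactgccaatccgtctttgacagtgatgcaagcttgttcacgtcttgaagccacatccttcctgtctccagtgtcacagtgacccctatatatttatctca
Casp4: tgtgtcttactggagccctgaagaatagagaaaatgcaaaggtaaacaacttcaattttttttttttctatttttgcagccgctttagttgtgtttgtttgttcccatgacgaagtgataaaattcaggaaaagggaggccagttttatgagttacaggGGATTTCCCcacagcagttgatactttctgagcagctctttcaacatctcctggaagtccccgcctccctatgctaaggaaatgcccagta

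Nlrp3, the sensor, was found almost entirely in myeloid cells. Macrophage cells had 99 Nlrp3 UMIs in the control library and 580 after ischemia, or 55.2 (44.9 to 67.3) and 108 CPM (99.5 to 117). The ratio of ischemia to control was 1.96 (1.58 to 2.45), with the ischemia library higher and the intervals apart. In neutrophils the level was 156 CPM (94.0 to 244; 19 UMIs) in the control library and 571 CPM (522 to 623; 507 UMIs) after ischemia, a ratio of 3.65 (2.32 to 6.12). Neutrophils stood above macrophage cells in both libraries, and these were the first and second classes in order. Macrophage cells held 80.5% of the Nlrp3 UMIs of the control and 51.2% of those of the ischemia library, and neutrophils 15.4% and 44.7%. The plot of the share of UMIs by class gives this for each gene.

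**Figure D1:**
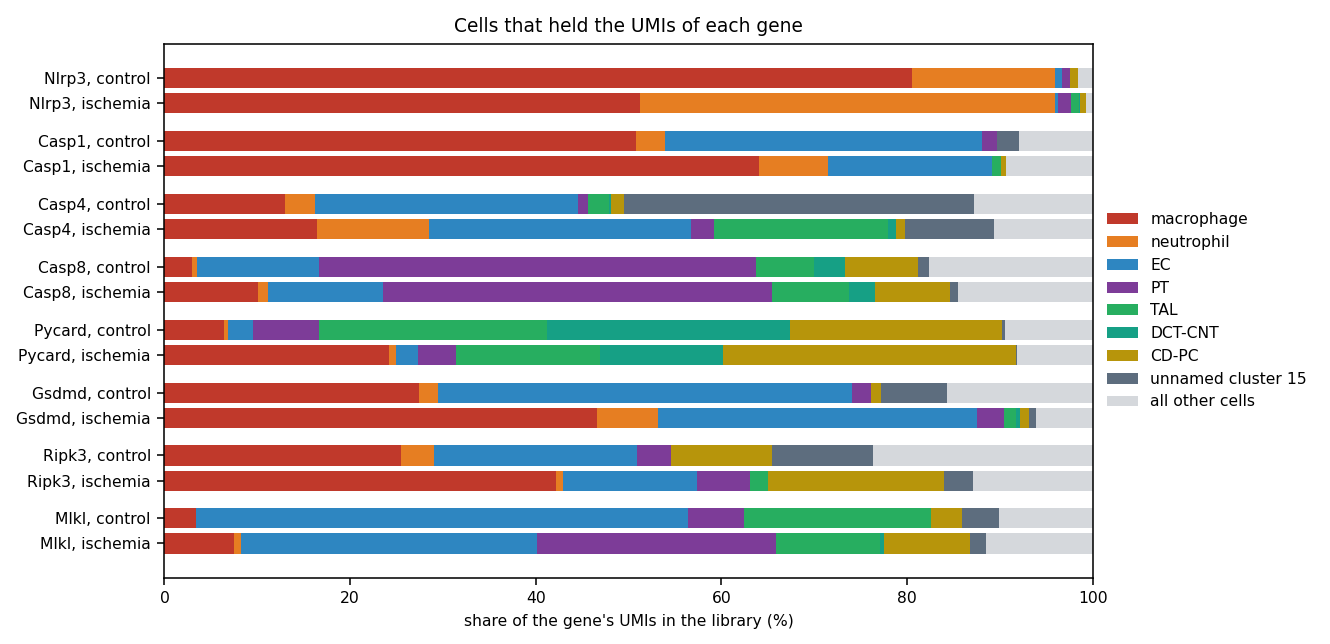
Share of each gene's UMIs (x axis, percent of the gene's UMIs in the library) held by 8 cell classes and by all other cells, for each gene and library (rows); the neutrophil class is the one at resolution 0.3. The neutrophil part of Nlrp3 goes from 15.4% in the control to 44.7% in the ischemia library, and the PT part of Mlkl from 6.04% to 25.7%.

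Of macrophage cells, 25.3% in the control library and 40.8% after ischemia had a Nlrp3 UMI. Their median depths were 5559.5 and 8647 UMIs. With each cell thinned to 1000 UMIs, which leaves out shallower cells (6 and 11 here), these shares were 5.67% and 9.41%. TAL cells, which served as background for genes of leukocytes, had a Nlrp3 UMI in 0 of 1336 control cells (a count that allows 0.225% at most) and in 0.817% of ischemia cells, at median depths of 7807 and 6196 UMIs. In PT, 1 control and 15 ischemia UMIs of Nlrp3 were counted, the latter in 5 cells. T-NK, B, thin limb, CD-IC and cluster 15 cells had 0 Nlrp3 UMIs in both libraries.

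Free RNA can place leukocyte transcripts in the droplets of other cells, so leukocyte markers were measured in the same cells. They cover free RNA of macrophages and neutrophils only, and that of other classes was not measured. C1qa, C1qb and C1qc together stood in PT at 1.1 CPM in the control library and 4.4 CPM after ischemia, and S100a8 and S100a9 at 6.74 and 4.28 CPM. At the same proportions of the macrophage and neutrophil levels, Nlrp3 would be at 0.119 CPM in ischemia PT, beside 0.26 measured (0.146 to 0.429), and at 0.171 CPM in ischemia TAL, beside 0.62 measured (0.297 to 1.14). In ischemia CD-PC cells it would be at 0.859 CPM, beside 0.634 measured, and in ischemia EC at 1.01 CPM, beside 0.61 measured. The Nlrp3 level in CD-PC and EC was thus no higher than these markers give, and in PT and TAL it was 2.19 and 3.62 times that on 15 and 10 UMIs. In PT 1 cell held 10 of the 15 UMIs, so that value rests mostly on 1 cell.

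**Figure D2:**
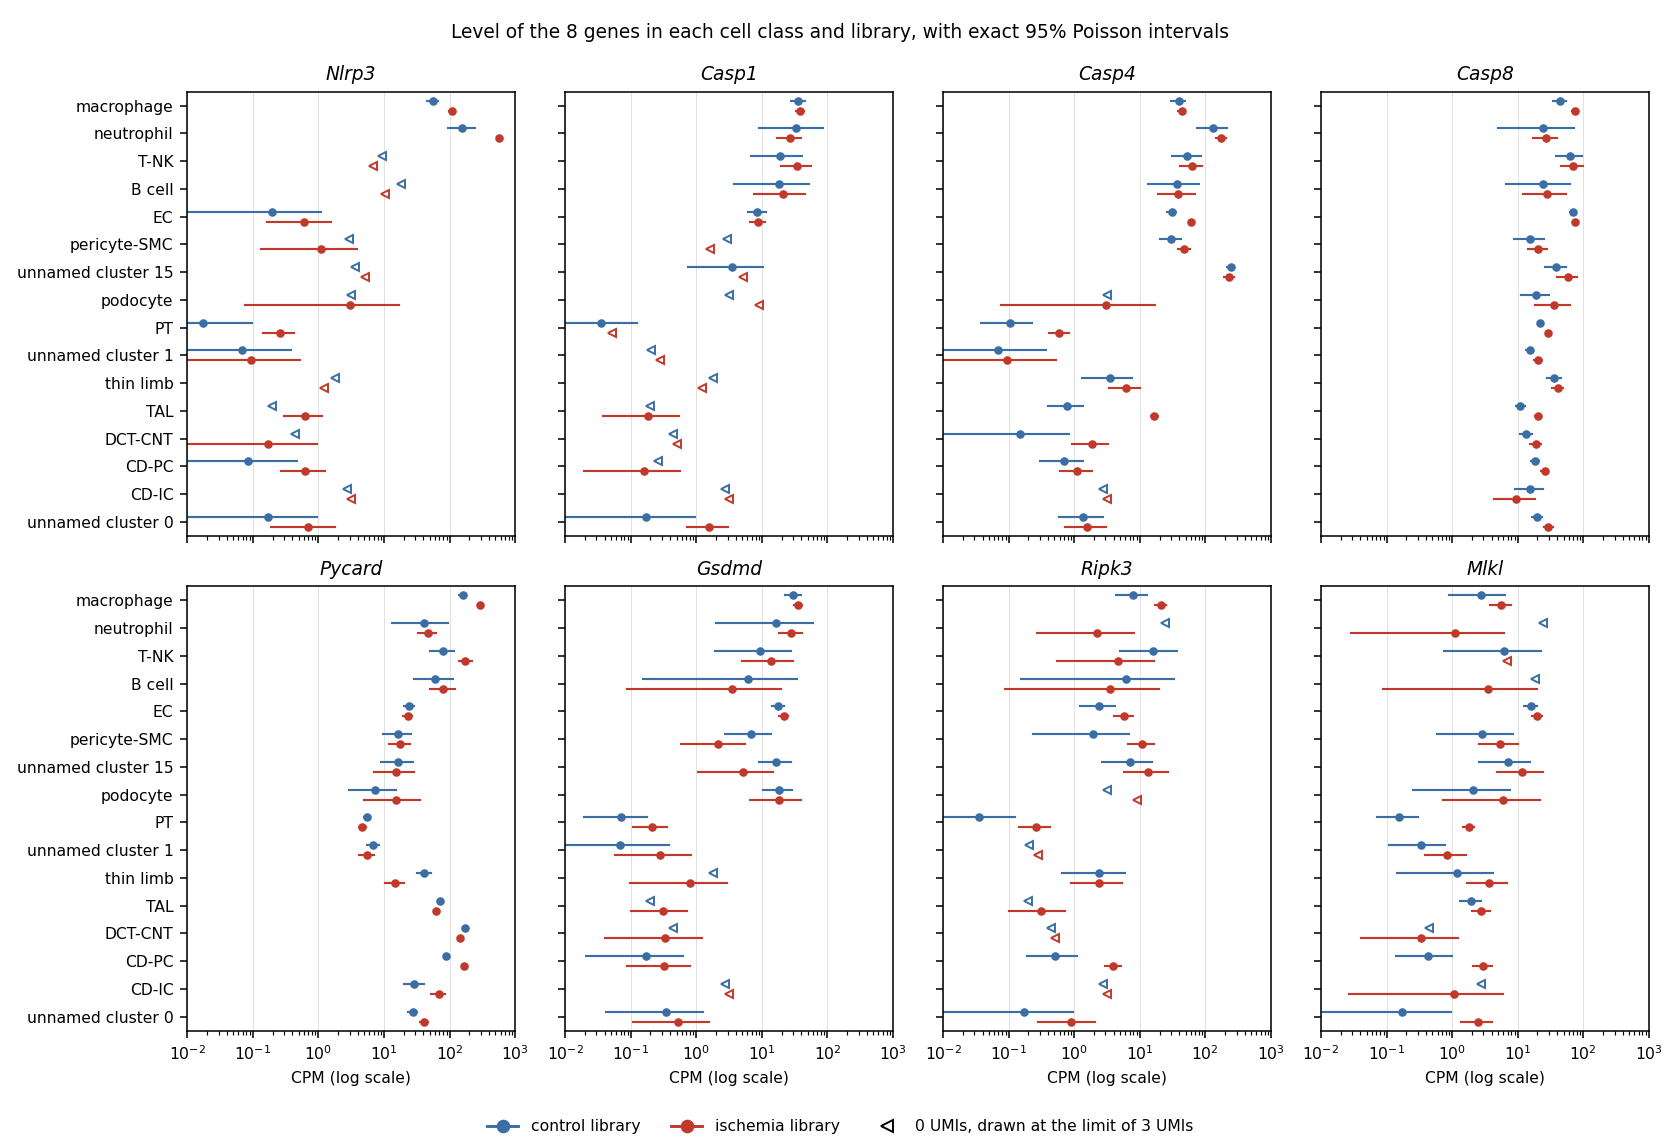
Level of each of the 8 genes (x axes, CPM on a log scale) in each cell class (rows) in the control (blue) and ischemia (red) library, with exact 95% Poisson intervals as lines; open triangles stand for 0 UMIs and are drawn at the level of 3 UMIs. Nlrp3 is highest in neutrophils (156 and 571 CPM), Casp4 in control cells of cluster 15 (242 CPM), and Casp4 in TAL goes from 0.781 to 16.6 CPM.

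Pycard, the adaptor, was not restricted to leukocytes. In the control library the highest level was that of DCT-CNT cells, 173 CPM (163 to 183), followed by macrophage cells at 158 CPM (141 to 178), whose interval overlapped it. CD-PC cells followed at 87.4 CPM (82.1 to 92.9), T-NK cells at 78.2 CPM (50.6 to 115), TAL cells at 71.2 CPM (67.0 to 75.5) and B cells at 60.6 CPM (29.1 to 111). The TAL class was at 54.8 CPM without cluster 4, which was itself at 104 CPM. The intervals of T-NK and B cells overlapped each other and those of CD-PC and TAL cells, which were apart. PT was lowest at 5.55 CPM (4.95 to 6.19), with an interval that overlapped that of cluster 1, 6.84 CPM (5.57 to 8.31). DCT-CNT, TAL and CD-PC cells held 26.1%, 24.6% and 22.9% of the Pycard UMIs of the control library, against 6.39% in macrophage cells. Of the TAL part, cluster 4, which may include DCT-CNT cells, held 11.9% of the control UMIs. At the proportions of the leukocyte markers, Pycard would be at 0.0389 CPM in control DCT-CNT, far under the level measured.

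In the ischemia library macrophage cells had the highest Pycard level, 294 CPM (280 to 309; 284 and 1576 UMIs), a ratio of 1.85 (1.63 to 2.11). CD-PC cells were also higher there, with 87.4 and 163 CPM (156 to 171), a ratio of 1.87 (1.73 to 2.02), and held 31.6% of the UMIs against 24.2% in macrophage cells. In DCT-CNT the ratio was 0.845 (0.773 to 0.924), in TAL 0.881 (0.808 to 0.961), in PT 0.837 (0.709 to 0.988) and in EC 0.948 (0.741 to 1.21). Thin limb cells were lower in the ischemia library, with 40.7 CPM (69 UMIs) and 14.6 CPM (36 UMIs), a ratio of 0.358 (0.232 to 0.543). T-NK cells were higher, with 78.2 and 174 CPM, a ratio of 2.23 (1.40 to 3.65), as were CD-IC cells, with 29.1 and 67.9 CPM, a ratio of 2.34 (1.51 to 3.69). Of the 64 UMIs of the 46 ischemia CD-IC cells, 5 cells held 31 and 1 cell held 14. In TAL the direction depended on the cells taken: cluster 7 had 54.8 and 44.0 CPM, while cluster 4, which holds as many DCT-CNT as TAL markers among its leading genes, had 104 and 126 CPM.

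Casp1, the caspase of the canonical inflammasome, differed by less than the counting error within the classes that held most of it. Macrophage cells had 35.7 CPM (27.5 to 45.6; 64 UMIs) in the control library and 38.6 CPM (33.5 to 44.2; 207 UMIs) after ischemia, a ratio of 1.08 (0.813 to 1.45). The ratio in EC was 1.01 (0.671 to 1.54), from 8.57 and 8.69 CPM, and in neutrophils 0.822 (0.282 to 3.26), from 4 and 24 UMIs. Neutrophils (32.9 CPM), T-NK cells (18.8 CPM) and B cells (18.2 CPM) followed macrophage cells in the control library with intervals that overlapped, and EC stood below macrophage cells with an interval apart. In tubule classes Casp1 was at or near 0, with 2 control and 0 ischemia UMIs in PT, which allows up to 0.052 CPM there, and 0 and 3 in TAL. DCT-CNT, thin limb, CD-IC, pericyte-SMC and podocyte cells had 0 Casp1 UMIs in both libraries. Casp1 and Nlrp3 were therefore counted at or near 0 in the classes that held most of the Pycard UMIs of the control library.

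The 3 genes of the canonical inflammasome met in macrophage cells. A UMI of Nlrp3, of Pycard and of Casp1 occurred together in 9 of 288 control macrophage cells, 3.12% (1.44% to 5.85%), and in 70 of 574 ischemia macrophage cells, 12.2% (9.63% to 15.2%). Over all kept cells the counts were 9 and 73, and the 3 ischemia cells outside the macrophage class were 2 neutrophils and 1 CD-PC cell. Neutrophils carried the highest Nlrp3 level, but 2 of 191 ischemia neutrophils held all 3 transcripts. These shares rise with depth, which was higher in ischemia macrophage cells, and after thinning to 1000 UMIs 0 of 282 and 1 of 563 macrophage cells held all 3, so the difference was not detectable at matched depth.

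Macrophage cells were clustered again into 5 sub-clusters. Sub-cluster 1, led by Cd209f, Cxcl13 and Fat3, had 174 control and 160 ischemia cells. Sub-cluster 2, led by S100a8, Chil3 and F10 and monocyte-like by its markers, had 22 and 275 cells. Sub-cluster 3, led by Pdzrn3, Snhg11 and Slc12a1, carried tubule transcripts (52 and 87 cells). Sub-clusters 4, led by Ccr7 (28 and 40 cells), and 5, led by Xcr1 (12 and 12 cells), were dendritic-cell-like. Nlrp3 was at 65.5 and 102 CPM within sub-cluster 1, the ratio being 1.56 (1.16 to 2.11), and at 99.1 (14 UMIs) and 142 CPM (372 UMIs) in sub-cluster 2, a ratio of 1.43 (0.844 to 2.65). Sub-cluster 2 held 32.8% of all Nlrp3 UMIs of the ischemia library and 11.4% of those of the control. Nlrp3 was at 29.3 (10 UMIs) and 36.8 CPM (21 UMIs) in sub-cluster 3. In sub-cluster 4 it was at 57.3 (11 UMIs) and 47.7 CPM (17 UMIs), and the intervals overlapped in both sub-clusters. Sub-cluster 5 had 0 and 2 Nlrp3 UMIs.

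**Figure D3:**
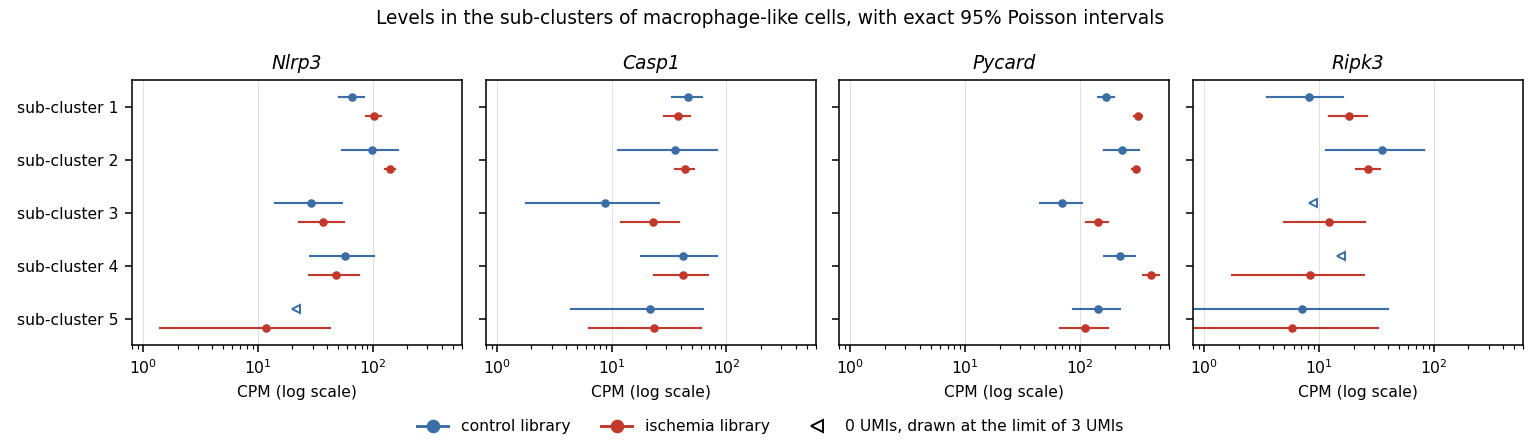
Level (x axes, CPM on a log scale) of Nlrp3, Casp1, Pycard and Ripk3 in the 5 sub-clusters of macrophage cells (rows) in the control (blue) and ischemia (red) library, with exact 95% Poisson intervals; open triangles stand for 0 UMIs and are drawn at the level of 3 UMIs. Pycard goes from 168 to 320 CPM in sub-cluster 1, while the intervals of Casp1 overlap in each sub-cluster.

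Pycard was higher in the ischemia library within sub-cluster 1, with 168 and 320 CPM, a ratio of 1.91 (1.60 to 2.29), and within sub-cluster 4, with 224 and 418 CPM, a ratio of 1.87 (1.32 to 2.69). In sub-cluster 2 it was at 233 and 306 CPM, a ratio of 1.31 (0.925 to 1.92). Casp8 was at 28.3 (4 UMIs) and 86.7 CPM (227 UMIs) in sub-cluster 2 and at 51.2 and 75.3 CPM in sub-cluster 1. It was at 41.0 and 52.6 CPM in sub-cluster 3 and at 46.9 (9 UMIs) and 42.1 CPM (15 UMIs) in sub-cluster 4. Sub-cluster 5 had 2 and 6 Casp8 UMIs. With the ischemia levels of the sub-clusters averaged at the control mix of sub-clusters, the macrophage ratio of Nlrp3 was 1.45 in place of 1.96, that of Pycard 1.76 in place of 1.85, that of Ripk3 2.01 in place of 2.65 and that of Mlkl 1.08 in place of 2.01. The control library had 22 cells in sub-cluster 2, which limits these averages.

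Casp4, the caspase for cytosolic lipopolysaccharide, was highest in the cells of cluster 15, which are led by Ptn, Sfrp2, Adamts5, Itga8 and Adgrl3. These 65 control and 51 ischemia cells had 242 CPM (210 to 278; 204 UMIs) and 232 CPM (195 to 274; 137 UMIs), a ratio of 0.956 (0.764 to 1.19), and held 37.7% of the Casp4 UMIs of the control library. Neutrophils followed at 132 CPM (75.2 to 214; 16 UMIs) and 173 CPM (147 to 203; 154 UMIs), a ratio of 1.32 (0.786 to 2.36). T-NK (53.2 CPM), macrophage (39.1 CPM), B (36.4 CPM), EC (30.5 CPM) and pericyte-SMC cells (29.9 CPM) came next in the control library, with overlapping intervals. The macrophage ratio was 1.12 (0.852 to 1.48), from 70 and 234 UMIs.

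EC were higher in the ischemia library, with 30.5 CPM (25.9 to 35.7; 153 UMIs) and 61.4 CPM (55.6 to 67.7; 403 UMIs), a ratio of 2.01 (1.67 to 2.44). The larger of the EC clusters, led by Plvap, had 21.1 and 55.5 CPM, a ratio of 2.64 (2.09 to 3.35), and the smaller, led by Plat, Sele and Ehd3, had 107 and 175 CPM, a ratio of 1.64 (1.12 to 2.4). Both clusters were higher in the ischemia library, and the smaller stood above the larger in each library. With EC chosen cell by cell from their markers, without clusters, the ratio was 1.43. In pericyte-SMC cells Casp4 was at 29.9 and 47.2 CPM, a ratio of 1.58 (1.04 to 2.46).

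The largest ratio of Casp4 among the classes with at least 20 UMIs was that of TAL cells. Here 12 UMIs were counted in 9 control cells and 268 UMIs in 120 ischemia cells, or 0.781 CPM (0.404 to 1.36) and 16.6 CPM (14.7 to 18.7), a ratio of 21.3 (12 to 41.7). The ischemia UMIs were not in a few cells alone: the 5 cells with the most held 67 of the 268. In TAL cells at most 25% mitochondrial the ratio was 10.5. In clusters made without integration of the libraries it was 10.3, but the TAL class there held 825 control and 16 ischemia cells. Another cluster there, of 32 control and 483 ischemia cells, scored highest for the TAL markers but stayed unnamed. The value of 10.3 thus leaves out most ischemia cells of this kind. Without cluster 4 the TAL class of the main clustering had 1.17 and 20.4 CPM, a ratio of 17.5 (9.82 to 34.2). Cluster 4 itself had 0 UMIs in the control, which allows up to 0.589 CPM, and 3.81 CPM in the ischemia library. Leukocyte markers would place Casp4 at 0.0568 CPM in ischemia TAL, well under the level measured. These markers do not cover free RNA of EC (61.4 CPM of Casp4) or cluster 15 (232 CPM), whose part was not tested.

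Casp4 was uneven within ischemia TAL cells. Nos1, which marks the macula densa, the sensor cells at the end of the TAL, was detected in 15 ischemia TAL cells, a split chosen after its values were seen. These 15 cells held 64 Casp4 UMIs, at 109 CPM (83.9 to 139), in 12 of the cells, and the other 1209 cells held 204 UMIs, at 13.1 CPM (11.4 to 15.1). In the control library 3 TAL cells had a Nos1 UMI and held 2 Casp4 UMIs, and the other 1333 cells held 10 UMIs, at 0.655 CPM (0.314 to 1.2). The TAL cells without Nos1 were thus still higher in the ischemia library. Cells with a Nos1 UMI were deeper, with a median of 26533 UMIs against 6137 in the other ischemia TAL cells.

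In PT, Casp4 had 6 control and 34 ischemia UMIs, 0.105 CPM (0.0385 to 0.229) and 0.589 CPM (0.408 to 0.823), a ratio of 5.61 (2.33 to 16.4), which was 2.98 in cells at most 25% mitochondrial and 17.6 as a mean over the cells' own CPM. Leukocyte markers would give 0.0452 CPM in ischemia PT. The unnamed clusters that scored highest for PT markers had 1 and 1 (cluster 1) and 8 and 9 Casp4 UMIs (cluster 0). In CD-PC the counts were 8 and 14 UMIs, a ratio of 1.61 (0.632 to 4.44), and in DCT-CNT 1 and 11 UMIs, which is under the minimum of 20 set for a ratio to be counted.

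Gsdmd, the pore protein of pyroptosis, was found mostly in macrophage cells, neutrophils, podocytes and vessels and hardly in tubules. In the control library macrophage cells had 30.1 CPM (22.6 to 39.3), podocytes 17.9 CPM (10.5 to 28.7), EC 17.5 CPM (14.1 to 21.6), cluster 15 cells 16.6 CPM (9.10 to 27.9) and neutrophils 16.4 CPM (1.99 to 59.4), and of these only EC had an interval apart from that of macrophage cells. The ratio was 1.18 (0.870 to 1.63) in macrophage cells, from 54 and 191 UMIs, and 1.23 (0.932 to 1.62) in EC, from 88 and 141 UMIs. In neutrophils it was 1.71 (0.427 to 14.9) on 2 and 25 UMIs, with 28.1 CPM (18.2 to 41.5) in the ischemia library. The tubule classes had between 0 and 12 Gsdmd UMIs each: PT 4 and 12, TAL 0 and 5, CD-PC 2 and 4, DCT-CNT 0 and 2. Over all kept cells Casp4 and Gsdmd were found together in 40 control and 113 ischemia cells, of which 17 and 45 were EC, 12 and 46 macrophage cells, and 7 and 3 cells of cluster 15.

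Casp8, which links death receptors to apoptosis and restrains necroptosis, was counted in all classes. The control order was EC (70.6 CPM, 63.4 to 78.3), T-NK (62.5 CPM, 38.2 to 96.6), macrophage (44.1 CPM, 34.9 to 54.9), cluster 15 (38.0 CPM) and thin limb cells (36.0 CPM), in which EC and macrophage cells had intervals apart and the neighbors in order overlapped. PT stood at 22.1 CPM (20.9 to 23.4) and held 47.0% of the Casp8 UMIs of the control and 41.9% of those of the ischemia library. All segments with at least 20 UMIs except CD-IC had a ratio above 1: PT 1.31 (1.22 to 1.41), TAL 1.87 (1.54 to 2.26), DCT-CNT 1.42 (1.07 to 1.89), CD-PC 1.41 (1.18 to 1.68) and thin limb 1.14 (0.818 to 1.59), with CD-IC at 0.618 (0.243 to 1.47) on 17 and 9 UMIs. Without cluster 4, TAL cells had 12.8 and 21.5 CPM, and cluster 4 had 7.26 and 16.6 CPM. Macrophage cells had 75.0 CPM in the ischemia library, a ratio of 1.70 (1.33 to 2.19), and EC a ratio of 1.07 (0.931 to 1.23). None of these reached 2, and the median ratio over genes with at least 100 UMIs was 1.12 in macrophage cells (0.16 on the log2 scale) and 1.11 in TAL cells (0.15), so that relative to it the ratios of Casp8 were 1.52 and 1.68.

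Ripk3, the kinase of necroptosis, was counted on few UMIs, 55 in the control library and 263 after ischemia, a ratio of 4.63 (3.45 to 6.31). The highest control level was that of T-NK cells, 15.6 CPM (5.08 to 36.5) on 5 UMIs, followed by macrophage cells and cluster 15 (7.13 CPM), with overlapping intervals. Macrophage cells had 7.81 CPM (4.27 to 13.1; 14 UMIs) and 20.7 CPM (17.0 to 24.9; 111 UMIs), a ratio of 2.65 (1.51 to 5.0), with intervals apart. Relative to the median ratio over genes it was 2.37. After thinning to 1000 UMIs it was 1.5, with a UMI left in 3 of 282 and 9 of 563 cells. In sub-cluster 1 the ratio was 2.22 (0.996 to 5.62), and in sub-cluster 2 it was 0.756 (0.309 to 2.4) on 5 control UMIs. EC had 2.39 CPM (12 UMIs) and 5.79 CPM (38 UMIs), a ratio of 2.42 (1.24 to 5.09), and pericyte-SMC cells 2 and 20 UMIs, a ratio of 5.63 (1.37 to 49.7). The EC ratio was 0.899 after thinning, which left few UMIs, in 2 of 885 and 2 of 984 cells.

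Among tubule classes the CD-PC class, which may include intercalated cells, had the most Ripk3 UMIs. There 6 control UMIs in 6 cells and 50 ischemia UMIs in 35 cells were counted, 0.516 CPM (0.189 to 1.12) and 3.96 CPM (2.94 to 5.23), a ratio of 7.68 (3.29 to 21.9). The ratio was 3.14 as a mean over the cells' own CPM. Leukocyte markers would give 0.0631 CPM in ischemia CD-PC. Thin limb cells had 4 and 6 Ripk3 UMIs, at 2.36 CPM (0.643 to 6.04) and 2.43 CPM (0.891 to 5.28), and the control level was above that of CD-PC with overlapping intervals. PT had 2 and 15 Ripk3 UMIs, TAL 0 and 5, DCT-CNT 0 and 0, and CD-IC 0 and 0. With 0 UMIs in TAL and DCT-CNT, control levels of up to 0.195 and 0.447 CPM remain possible. In neutrophils Ripk3 had 0 control and 2 ischemia UMIs, and a level of 2.25 CPM (0.273 to 8.13) in the ischemia library, below that of macrophage cells.

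Mlkl, the executioner of necroptosis, had its highest control level in EC, 15.7 CPM (12.5 to 19.6; 79 UMIs), against 19.5 CPM (16.3 to 23.2; 128 UMIs) in ischemia EC, a ratio of 1.24 (0.929 to 1.66). EC held 53.0% of the Mlkl UMIs of the control and 31.9% of those of the ischemia library. Cluster 15 followed at 7.13 CPM (2.62 to 15.5), T-NK cells at 6.25 CPM (2 UMIs) and pericyte-SMC cells at 2.89 CPM (3 UMIs), with overlapping intervals among these and between cluster 15 and EC. Macrophage cells had 5 and 30 UMIs, 2.79 CPM (0.906 to 6.51) and 5.59 CPM (3.77 to 7.99), a ratio of 2.01 (0.770 to 6.62), and neutrophils 0 and 1 UMI. The intervals of macrophage cells overlapped, and relative to the median ratio over genes the value was 1.80.

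PT cells had the largest Mlkl ratio among the classes with at least 20 UMIs. They had 9 UMIs in 9 of 2199 control cells and 103 UMIs in 87 of 1757 ischemia cells, 0.158 CPM (0.0720 to 0.299) and 1.79 CPM (1.46 to 2.17), a ratio of 11.3 (5.74 to 25.5). Over the alternatives that gave a value the ratio was 7.89 to 11.3. Both PT clusters were higher: cluster 2, led by Snhg11 and with Slc5a12 among its leading genes, had 0.117 (4 UMIs) and 1.11 CPM (39 UMIs), and cluster 5, led by Slc7a13, a gene of the last part of the proximal tubule, had 0.217 (5 UMIs) and 2.84 CPM (64 UMIs). The ratios were 9.46 (3.41 to 36.5) and 13.1 (5.32 to 41.6). Leukocyte markers would give 0.00479 CPM in ischemia PT. The unnamed clusters that scored highest for PT markers had fewer than 20 Mlkl UMIs each. Cluster 1 had 5 and 9 UMIs, at 0.339 CPM (0.110 to 0.790) and 0.848 CPM (0.388 to 1.61). Cluster 0 had 1 and 14 UMIs, at 0.173 and 2.46 CPM.

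The Mlkl transcripts of ischemia PT were found in cells with Havcr1. All 103 UMIs lay in the 1309 ischemia PT cells with a Havcr1 UMI, at 2.17 CPM (1.77 to 2.63), and 0 in the 448 cells without, which allows up to 0.295 CPM. In the control library 131 PT cells had a Havcr1 UMI and held 3 Mlkl UMIs, 0.730 CPM (0.151 to 2.13), and the other 2068 cells held 6, 0.113 CPM (0.0415 to 0.246). Depth moved with this split, at medians of 39889 UMIs with and 20189.5 UMIs without Havcr1 in the ischemia library, and its part in the counts was not tested. For Casp8 the same split of ischemia cells gave 29.9 CPM (28.4 to 31.5) with and 25 CPM (22.0 to 28.2) without Havcr1. In control cells it gave 28.7 CPM (23.8 to 34.4) with and 21.6 CPM (20.4 to 22.9) without Havcr1. On each side of the split the intervals of the libraries thus overlapped. For Casp4 the ischemia values were 0.589 and 0.590 CPM on 28 and 6 UMIs, and the control counts 1 and 5 UMIs.

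CD-PC cells had 5 and 37 Mlkl UMIs, 0.430 CPM (0.140 to 1.0) and 2.93 CPM (2.07 to 4.04), a ratio of 6.82 (2.68 to 22.2). After thinning the ratio was 1.17, with a UMI left in 1 of 531 and 1 of 454 cells (0.188% and 0.220%). The 5 ischemia CD-PC cells with the most Mlkl held 19 of the 37 UMIs. TAL cells had 1.95 CPM (1.32 to 2.79) and 2.79 CPM (2.04 to 3.73), a ratio of 1.43 (0.881 to 2.35), and DCT-CNT cells 0 and 2 UMIs. Ripk3 and Mlkl were found in the same cell in 2 control and 16 ischemia cells, of which 6 were CD-PC cells and 2 each PT, macrophage, EC and thin limb cells. In PT, 2 of the 87 ischemia cells with Mlkl also had a Ripk3 UMI.

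**Figure D4:**
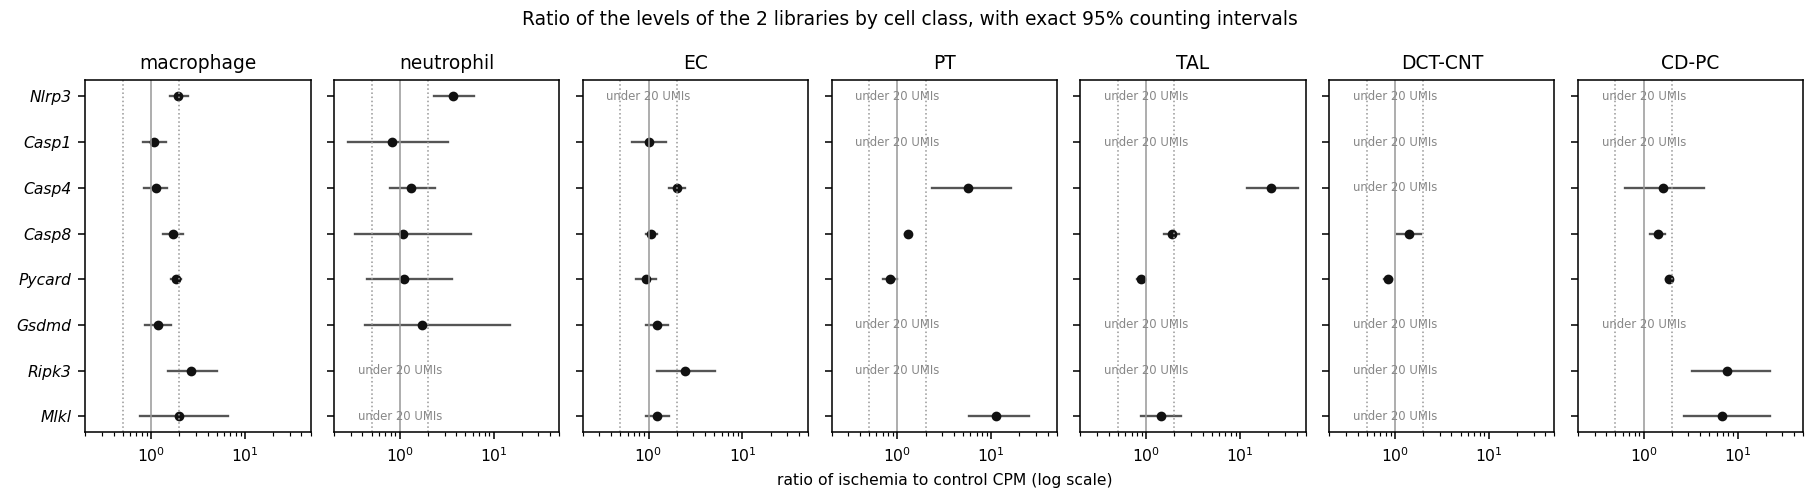
Ratio of ischemia to control CPM (x axes, log scale) of each gene (rows) in 7 cell classes (panels), with exact 95% counting intervals; the solid line marks a ratio of 1 and the dotted lines ratios of 0.5 and 2, and classes with fewer than 20 UMIs of a gene are marked so. Casp4 in TAL (21.3), Mlkl in PT (11.3) and Ripk3 in CD-PC (7.68) lie farthest to the right.

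To read these ratios against all genes, a gene was counted as higher or lower when it had at least 20 UMIs over both libraries in the class and a ratio of at least 2 or at most 0.5. In macrophage cells 2 of the 8 genes were higher, Ripk3 and Mlkl, beside 6.8% of all genes tested there, and 0 were lower, beside 7.58%. In neutrophils 1 of the 6 genes that had the UMIs was higher, Nlrp3, beside 28.1% of all genes, and 0 were lower, beside 4.33%. EC had 2 of 7 higher, Casp4 and Ripk3, beside 2.88%, and 0 lower, beside 5.12%. PT had 2 of 4 higher, Casp4 and Mlkl, beside 8.26%, and 0 lower, beside 4.82%. TAL had 1 of 4 higher, Casp4, beside 10.6%, and 0 lower, beside 7.25%. DCT-CNT had 0 of 2 higher, beside 8.62%, and 0 lower, beside 7.61%. CD-PC had 2 of 5 higher, Ripk3 and Mlkl, beside 7.38%, and 0 lower, beside 5.27%. The median log2 ratio over the genes of the 8 that had a ratio, beside that over all genes tested, was 0.83 beside 0.07 in macrophage cells, 0.28 beside 0.40 in neutrophils, 0.29 beside -0.02 in EC, 1.44 beside 0.10 in PT, 0.71 beside 0.16 in TAL, 0.13 beside 0.08 in DCT-CNT, 0.90 beside 0.02 in CD-PC and 1.33 beside 0.14 over all kept cells. In neutrophils the value was thus lower than that over all genes. The genes that passed the minimum differ between classes, and those that reached it only through the ischemia library had to be higher, so these counts describe the genes one by one.

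Over all kept cells, 6 of the 8 genes were at least 2-fold higher in the ischemia library, beside 10.1% of all genes, and 0 were lower, beside 4.77%. The ratios were 8.92 for Nlrp3, 4.63 for Ripk3, 2.61 for Mlkl, 2.55 for Casp4, 2.48 for Casp1, 2.02 for Gsdmd, 1.44 for Casp8 and 1.42 for Pycard. The median ratio over genes with at least 100 UMIs was 1.1 (0.13 on the log2 scale), and relative to it Gsdmd was at 1.84. The mix of cells moved with these ratios: the neutrophil class held 0.295% of the UMIs of the control and 0.953% of the ischemia library, and macrophage cells 1.44% and 4.17%. With the ischemia level of each class averaged at the control mix of classes, the ratio was 3.18 for Nlrp3, 3.02 for Ripk3, 2.32 for Mlkl, 1.93 for Casp4, 1.34 for Casp8, 1.22 for Gsdmd, 1.19 for Pycard and 1.18 for Casp1. The neutrophil class in this mix was the one at resolution 0.3. Its 14 control cells of another kind held 0.197% of the control UMIs, against 0.0976% in the 19 neutrophils. Nlrp3 was at 413 CPM in ischemia cells of that class, so this level had more weight than the 19 neutrophils would give. The ratio with the 19 neutrophils alone was not computed. With the class at resolution 0.3, Nlrp3, Ripk3 and Mlkl were above 2 at both mixes.

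**Figure D5:**
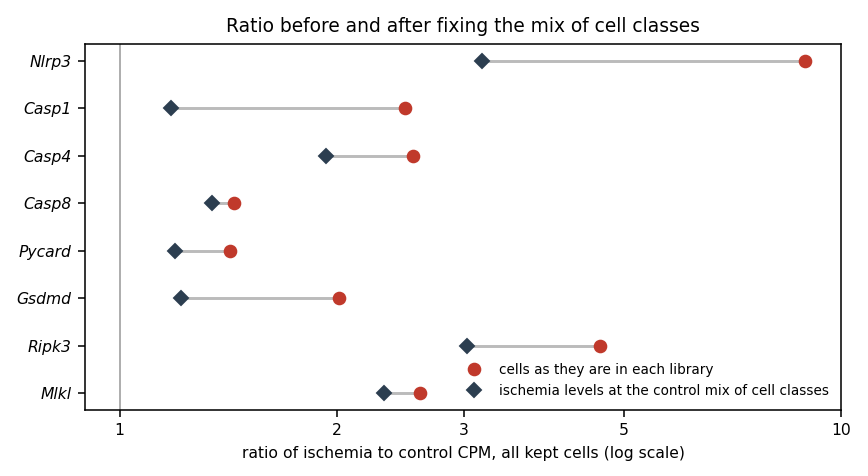
Ratio of ischemia to control CPM over all kept cells (x axis, log scale) of each gene (rows), with the cells as they are in each library (circles) and with the ischemia levels of the cell classes averaged at the control mix of classes (diamonds). The neutrophil class is the one at resolution 0.3. Nlrp3 moves from 8.92 to 3.18 and Casp1 from 2.48 to 1.18, while Mlkl moves from 2.61 to 2.32.

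The other genes of these pathways were read from a list of 39 genes. In macrophage cells 36 had the UMIs, of which 4 were higher and 2 lower, beside 6.8% and 7.58% of all genes. Among inflammasome sensors 1 of 8 was higher, Mefv, which encodes pyrin, at 5.58 and 29.1 CPM, a ratio of 5.21 (2.76 to 11.1), while Nlrp1b had 94.9 and 60.6 CPM and Aim2, a sensor of DNA, 92.1 and 51.7 CPM. Among partners of NLRP3 Gbp5 was higher, at 5.02 and 12.7 CPM, and Txnip (165 and 82.8 CPM) and Tlr2 (68.6 and 64.5 CPM) had the most UMIs. Among substrates and effectors Ninj1, which ruptures the membrane of dying cells, was higher, at 55.8 and 114 CPM, a ratio of 2.05 (1.65 to 2.55), and Il1b, the substrate of caspase-1, had 1432 and 2064 CPM, a ratio of 1.44 (1.38 to 1.5). Of the necroptosis and caspase-8 complex 1 of 11 passed the fold, Tlr3, which was lower at 29.0 and 11.2 CPM, while Cflar, the inhibitor of caspase-8, had 76.4 and 98.5 CPM and Birc3 93.2 and 84.5 CPM. Of the apoptosis caspases Casp2 was lower (12.3 and 5.59 CPM), and Casp6 passed neither fold, with 13.9 and 16.4 CPM.

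In neutrophils 6 of 23 listed genes were higher, a share near the 28.1% of all genes, and 0 lower, beside 4.33%. Ninj1 was at 41.1 (5 UMIs) and 176 CPM (156 UMIs), a ratio of 4.27 (1.79 to 13.3), and Il1b at 5195 and 8165 CPM, a ratio of 1.57 (1.45 to 1.71). The other 5 were Naip2, Aim2, Mefv, Myd88 and Tlr2, each on 0 to 7 control UMIs. EC had 2 of 31 higher, beside 2.88% of all genes, Aim2 (1.59 and 4.57 CPM) and Il1b (9.97 and 44.7 CPM), and 1 lower, beside 5.12%, Nlrp6 (6.98 and 2.90 CPM). The Il1b level of ischemia EC stood beside 95.6 CPM of S100a8 and S100a9 there, against 5.58 CPM in control EC, and the part of free RNA in it was not tested.

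In PT 9 of 28 listed genes were higher, beside 8.26% of all genes, and 1 lower, beside 4.82%. The lower gene was Nlrp6, a member of the NLRP family and the listed sensor with the most UMIs in PT, at 36.6 (2091 UMIs) and 15.8 CPM (914 UMIs), a ratio of 0.433 (0.400 to 0.468). Of the death receptor complex, Tnfrsf1a, the receptor of TNF, was at 19.0 and 52.7 CPM, a ratio of 2.77 (2.59 to 2.97), Birc3, a ubiquitin ligase of this complex, at 3.62 and 13.3 CPM, a ratio of 3.67 (3.15 to 4.30), and Tlr3 at 1.91 and 3.86 CPM. Cflar had 85.5 and 85.6 CPM. Ninj1 was at 79.0 and 117 CPM, a ratio of 1.49 (1.43 to 1.54), and Gsdme, another pore-forming gasdermin, at 20.3 and 24.7 CPM, on far more UMIs than the 4 and 12 of Gsdmd. The other genes past the fold, Nlrc4, Naip1, Gbp2, Tlr2, Tlr4 and Il1b, were at 2.44 CPM or less in both libraries. The part of free RNA in these low levels, that of Il1b among them, was not tested. Casp6 had a ratio of 1.14.

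In TAL 5 of 25 listed genes were higher, beside 10.6% of all genes, and 1 lower, beside 7.25%. Gbp2, a guanylate-binding protein of the response to interferon, had 1 control and 72 ischemia UMIs, a ratio of 68.6 (11.9 to 2746), and Gbp5 0 and 37 UMIs, at least 11.7-fold higher with 3 UMIs taken for the control. Birc3 was at 10.7 and 45.3 CPM, a ratio of 4.25 (3.58 to 5.06), Tlr2 at 0.456 and 2.36 CPM and Il1b at 0.716 and 5.77 CPM. The part of free RNA in the Il1b level of TAL was not tested. Nlrp6 was lower, at 4.62 and 1.30 CPM. In DCT-CNT 4 of 23 were higher, beside 8.62% of all genes, and 1 lower, beside 7.61%. The higher genes were Birc3 (8.78 and 68.5 CPM, a ratio of 7.79, 5.92 to 10.4), Birc2 (21.6 and 52.0 CPM), Gbp2 and Tlr2, and the lower gene was Nlrp6. In CD-PC 2 of 25 were higher, a share near the 7.38% of all genes, and 1 lower, beside 5.27%. These were Gbp2 (0.688 and 2.06 CPM) and Il1b (0.860 and 8.80 CPM), the latter beside S100a8 and S100a9 at 1.03 and 82.1 CPM, and Nlrp6 was lower (3.18 and 0.872 CPM). Nlrp6 was thus lower in each of the 5 classes of PT, TAL, DCT-CNT, CD-PC and EC. Free RNA of PT was not estimated, so its part in the Nlrp6 levels of the other classes was not tested. Over all kept cells 15 of 39 were higher, beside 10.1% of all genes, and 1, Nlrp6, was lower, beside 4.77%.

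The genes most alike in pattern were found by the correlation of log2(CPM + 1) over 26 combinations of class and library, among 14315 genes; these are 13 classes in both libraries, the points of a library share its preparation and depth, and the values are a description. Classes with fewer than 50 cells in a library were left out, which were neutrophils, the class with the highest Nlrp3 level after ischemia, B cells and CD-IC cells. For Nlrp3 these were Cyp4f18 (r = 0.977) and Clec5a (0.968), for Casp1 AI662270 (0.979), Vsir and Samsn1, and for Casp4 Lrrc8c (0.948), Limk1 and Tbc1d2b. Casp8 was most like Tpm3 (0.912), Pycard most like Cytip (0.917), Gsdmd most like H2-M3 (0.935), Ripk3 most like Ppp1r18 (0.919) and Mlkl most like Cyp20a1 (0.880). Among the 8 genes the highest value was that of Casp4 with Ripk3 (0.845), followed by Casp1 with Casp8 (0.754) and Casp1 with Gsdmd (0.727), and the lowest that of Pycard with Mlkl (-0.115). Pycard had its 2 highest values among the 8 with Casp1 (0.488) and Nlrp3 (0.430).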

How the data were processed

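Single cell RNA sequencing of 1 control and 1 ischemia kidney library was used, grouped by the GEO labels. Per the labels and the processing notes, the authors aligned the 10x 3′ reads to mm10 with Cell Ranger 7.0.0 and deposited filtered matrices of UMI counts per gene and cell; whether intronic reads were counted is not given in the sources used here. Barcodes outside the limits on genes, UMIs and mitochondrial share were removed. Cells were integrated by anchors on 2000 variable genes, without the 8 genes and the pathway list, and clustered with 30 principal components at resolution 0.3 in Seurat 5.3.0 (R 4.3.3, seed 42, scale factor 10000). A cluster was named from markers among its 10 leading genes. Scrublet in scanpy 1.11.5 called 0 doublets in either library, so it did not work here, and no cell was removed as a doublet.

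Counts were summed per class and library and divided by the class total (CPM) in Python 3.11.15 (numpy 2.4.6, scipy 1.17.1, pandas 2.3.3). Levels have exact Poisson intervals, ratios exact conditional binomial intervals, and shares Clopper-Pearson intervals, all at 95%; a count of 0 allows 3. A gene was counted as 2-fold higher or lower with at least 20 UMIs over both libraries. Cells thinned to 1000 UMIs were compared where depth differed. The level expected from free RNA of macrophages and neutrophils took the C1q and S100a8 and S100a9 levels of a class as shares of those of macrophage and neutrophil cells. Free RNA of other classes was not estimated.

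All 8 genes were named, with the pathway genes past the fold or with the most UMIs in each group of the list. A few genes that the rule names are not reported here. The 8 genes and the lists were chosen with earlier results of these data known. Other limits on cells, other clusterings, a marker gate, other scalings, thinning and other thresholds were tried. The neutrophil class at resolution 0.6, TAL without cluster 4, macrophage cells without sub-cluster 3, the control mix of classes or sub-clusters and the split of PT by Havcr1 and of TAL by Nos1 were chosen after seeing the data. The scripts were tested on simulated data.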

Additional observations from a re-analysis of the deposited data

Results flagged for a closer look

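The barcodes removed by the limits on genes, UMIs and mitochondrial share also held transcripts of the 8 genes, and each of the 8 was at a higher CPM there in the ischemia than in the control library. The share of all genes that were higher in these barcodes was not computed, so the count is not a result about the 8 genes. For 3 of the 8 genes the intervals of the levels were apart. Casp8 was at 5.61 CPM in the removed control barcodes and 8.65 CPM in the removed ischemia barcodes, Pycard at 7.33 and 24.0 CPM, and Mlkl at 0.111 and 1.55 CPM. The ratio of Nlrp3 was 10.1 (1.36 to 449) on 1 and 8 UMIs, that of Casp4 2.95 (1.07 to 9.38) on 6 and 14, and that of Ripk3 5.06 (1.01 to 48.9) on 2 and 8. These barcodes entered no comparison, and the control barcodes gave the background level.

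The ratio of Pycard stood apart between classes. It was 2.23 in T-NK cells and 2.34 in CD-IC cells, where the ischemia library was higher, and 0.358 in thin limb cells, where it was lower. In CD-IC, 5 cells held 31 of the 64 ischemia UMIs. With 1 library per condition the difference between these classes was not tested.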

How the results depend on the processing

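Of the 477 ratios recomputed over 44 results, 403 moved by less than the counting error, 73 moved further and 1 turned its direction. A turn was counted only where the main ratio was at least 2 or at most 0.5. Smaller ratios that crossed 1 were not counted as turned. At the control mix of sub-clusters, macrophage Casp1 went from 1.08 to 0.969, Casp4 from 1.12 to 0.987 and Gsdmd from 1.18 to 0.988. Of the 112 shares of cells with a UMI recomputed after thinning to 1000 UMIs per cell, 93 moved beyond their interval and 19 did not. Thinning takes UMIs away, so a fall of these shares follows from the method. The count does not show how the difference between the libraries depends on depth. The ratio counted as turned was that of Ripk3 in EC, 0.90 after thinning to 1000 UMIs, which left a UMI in 2 cells of each library. Thinning also gave 1.5 for Ripk3 in macrophage cells, on 3 and 9 cells with a UMI. For Mlkl in CD-PC it gave 1.17, on 1 such cell in each library. It gave 2.35 for Pycard in macrophage cells, 3.0 for Casp4 in EC and 4.78 for Nlrp3 in the neutrophil class. In that class, at resolution 0.3, the Nlrp3 ratio was 7.99, against 3.65 at resolution 0.6, 3.83 without integration, 5.02 by the marker gate and 4.98 as a mean of the cells' CPM. The gate gave 1.43 for Casp4 in EC, and the mean of the cells' CPM gave 3.14 for Ripk3 in CD-PC. Casp4 in TAL was at 10.5 with at most 25% mitochondrial UMIs. It was at 10.3 without integration, where the TAL class held 16 ischemia cells. At the control mix of sub-clusters Nlrp3 in macrophage cells was at 1.45. The cause of these shifts was not tested. Without integration no CD-PC class was found, so no value was given there.

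Counts of genes higher moved as their thresholds did. The shares of all genes at these other thresholds were not computed, so the counts show only how the main counts depend on them. With a minimum of 50 UMIs, 1 gene was higher in each of macrophage cells, PT and CD-PC. At a fold of 1.5, 5 were higher in macrophage cells, 4 in CD-PC, 2 in TAL and 2 in neutrophils. With a minimum of 1 UMI in each library, 5 were higher in PT and 1 in DCT-CNT, and 1 was lower in the neutrophil class. No paired analysis was possible because each condition had 1 library and no result came from a test. Depth limits Ripk3 most, with 55 control UMIs in all.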
